A study of Mus musculus with 33 samples.

Results

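The comparison described here is the effect of a stabilised β-catenin allele on livers that also carry activated MYC, measured once in established tumours and once in short-term livers on day 4. It uses 16 of the 33 RNA libraries of the series, in 4 groups, and was computed for each of 15501 genes out of the 21671 in the deposited table. The short-term livers came from C57BL/6 mice that were 6 to 8 weeks old when AAV8-TBG-CRE was given, an adeno-associated virus in which the hepatocyte-specific TBG promoter drives Cre recombinase. Of these, 5 carried R26-lslMYC, a MYC transgene at Rosa26 behind a stop cassette that Cre removes (MYC livers), and 5 carried R26-lslMYC/beta-cat Ex3, which adds a β-catenin allele that loses exon 3 on Cre activity (MYC+Ex3 livers). The tumours were primary liver noduli of the same strain, 3 with Albeta-CreERT2/R26-lslMYC (MYC tumours) and 3 with Albeta-CreERT2/R26-lslMYC/beta-catEx3 (MYC+Ex3 tumours). Their Cre, described elsewhere in the labels as Alb-CreERT2, is active in hepatocytes after an estrogen receptor ligand is given, and their age and the time from activation to sampling are not stated. All 4 groups therefore carry MYC, and in both settings the only labelled difference within a pair is Ex3. Between the settings the Cre, the time, the tissue and the scale of the deposited values all changed together and cannot be told apart. RNA came from whole tissue, so fewer cells of a type and less RNA per cell cannot be told apart in any value given here. The labels do not say whether libraries of a group came from separate animals beyond the distinct number in each title, so p-values measure the spread between these samples.

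β-Catenin is the effector of canonical Wnt signalling. Its exon 3 encodes the serine and threonine residues whose phosphorylation marks the protein for degradation, so that protein lacking this exon accumulates and, with TCF/LEF factors, activates genes such as Axin2, Lgr5 and Sp5. In the normal liver the pathway is active around the central vein, where it maintains pericentral genes such as Glul (glutamine synthetase), Rhbg (an ammonium transporter) and Slc1a2 (a glutamate transporter), and it restrains periportal genes such as Sds (serine dehydratase). MYC is a transcription factor that drives growth and division. The question addressed is which responses to Ex3 on a MYC background are already present on day 4 and which are seen in established tumours. The genes Sqrdl and Mettl7b were given as markers of the comparison.

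Levels are given as scaled values, that is deposited RPKM with each library rescaled to a sum of 1000000, and effects as differences of the mean log2(scaled value + 1), which understate the change of genes at low levels. The Ex3 effect is MYC+Ex3 minus MYC, and the difference of effects is the effect in tumours minus the effect on day 4. The day 4 livers with MYC had 3.75 to 7.31 M reads in genes and the tumours 6.67 to 9.82 M. The highest gene in a library reached a scaled value of 657 to 1095 on day 4 and 525 to 713 in tumours. Whether the deposited scale compresses differences near its top was not tested. The epidermal keratins Krt5, Krt14 and Krt17 summed to an RPKM of at least 1 in 1 of 5 MYC livers and 3 of 5 MYC+Ex3 livers and in 0 of 6 tumours, and livers past that level are called livers with keratin reads. Sex was read from Xist and Ddx3y: with MYC alone 3 of 5 livers and 3 of 3 tumours were male, and with MYC+Ex3 4 of 5 livers and 2 of 3 tumours. The libraries read as female were MYC liver replicates 3 and 5, MYC+Ex3 liver replicate 5 and MYC+Ex3 tumour replicate 3. MYC liver replicate 5 held both transcripts, at deposited RPKM of 86.1 and 4.74. On the first principal component, with 45.8% of the variance, the other 5 tumours lay between 70.3 and 90.5, the day 4 livers between -63 and -26.3, and MYC tumour replicate 1 at 0. MYC liver replicate 5 lay apart on the second, at -65.7. Mature hepatocyte genes were abundant in every library: the scaled values of 29 such genes summed to 10220 to 15280 on day 4 and 6022 to 10650 in tumours, and none was at 0 in all 16 libraries. Total Ctnnb1, which does not report on the loss of 1 exon, was 285 to 339 in MYC tumours and 297 to 324 in MYC+Ex3 tumours, and 334 to 396 and 317 to 390 in the corresponding day 4 livers. Mouse Myc was at 9.05 to 14.7 in MYC livers, 5.35 to 15.6 in MYC+Ex3 livers, 16.4 to 29 in MYC tumours and 25.3 to 25.7 in MYC+Ex3 tumours.

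More genes were called with Ex3 in tumours than on day 4, and a small set differed between the settings. For the tumours limma called 146 genes higher (0.942% of genes tested) and 180 lower (1.16%) with Ex3 at an adjusted p under 0.05, 2.1% together. On day 4 it called 5 higher and 0 lower (0.0323%), with 348 genes at an unadjusted p under 0.05, of which 149 were lower, where chance gives 775. Fitted on the tumours alone, the tumour comparison gave 30 calls, 28 of them among the 326 of the joint fit. Fitted on the day 4 livers alone, the day 4 comparison gave 5 calls, 2 of them among the 5 above. Median SD over genes was 0.372 log2 units in MYC tumours and 0.187 in MYC+Ex3 tumours. It was 0.355 in MYC livers and 0.298 in MYC+Ex3 livers. The difference of effects itself was called for 46 genes (0.297%), 24 more positive in tumours (0.155%) and 22 more negative (0.142%). All 46 were also called in the tumours in the same direction and none was called on day 4. The 46 were chosen by this contrast, so the overlap of their groups describes them and supports nothing. In all 46 the 3 MYC+Ex3 tumours did not overlap the 3 MYC tumours, which held for 17.7% of all genes tested, and in 0 of the 46 did the day 4 groups fail to overlap, against 0.613% of all genes. Of the 24 more positive genes, 11 reached the filter, a scaled value of at least 1 in 3 libraries, only with the help of the MYC+Ex3 tumours, and 8 of these through those 3 tumours alone. Such genes could be tested only because they were high there. For 33 of the 46 the 95% interval of the day 4 effect lay within 1 log2 unit of 0. The median standard error was 0.24 for the day 4 effect, 0.31 for the tumour effect and 0.39 for their difference. The number of genes with a called difference depended on single libraries: it was 227 without MYC tumour replicate 2, 101 without MYC tumour replicate 3, and 21 and 24 without MYC+Ex3 tumour replicates 1 and 3. It was 13 when only day 4 livers without keratin reads were kept, 4 MYC and 2 MYC+Ex3, and 4 with males only. Without MYC tumour replicate 1 and MYC liver replicate 5, which stood apart, it was 55 (19 more positive and 36 more negative), of which 30 were among the 46.

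**Figure D1:**
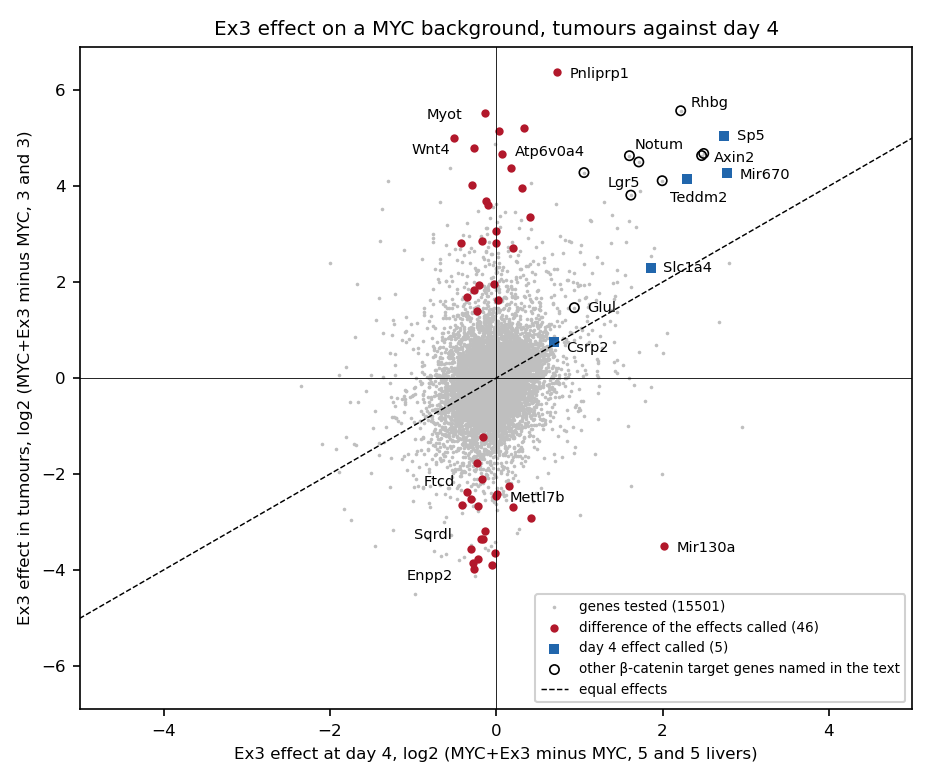
Ex3 effect in tumours (vertical axis) against the Ex3 effect on day 4 (horizontal axis) for 15501 genes, both as log2 differences of MYC+Ex3 minus MYC. The 46 genes with a called difference (red) lie along the vertical axis except Mir130a, the 5 genes called on day 4 (blue squares) lie to the upper right, and the dashed line marks equal effects.

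Sqrdl and Mettl7b were lower with Ex3 in tumours and not on day 4. Sqrdl, now named Sqor, encodes the mitochondrial sulfide:quinone oxidoreductase that begins the oxidation of hydrogen sulfide. Its scaled value was 137, 180, 197, 193 and 192 in the 5 MYC livers and 142, 136, 164, 174 and 203 in the 5 MYC+Ex3 livers. In tumours it was 136, 117 and 134 with MYC and 13.8, 17.3 and 9.63 with MYC+Ex3. The day 4 groups overlapped throughout, the MYC tumours lay at or just below their range, and the 3 MYC+Ex3 tumours stood far below every other library. Sqrdl fell 9.51-fold in tumours by the ratio of means, an effect of -3.19 ± 0.20 (SE) log2 units (limma adjusted p = 3.55e-07). On day 4 its effect was -0.14, with a 95% interval from -0.46 to 0.19. The difference of effects was -3.05 ± 0.25 (limma adjusted p = 1.75e-05), and it remained called in all 13 alternative settings and in all 16 fits that each left out 1 library. Wild-type livers given the same virus had 195 to 250, and Ex3 livers without MYC 179 to 220.

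Mettl7b encodes an enzyme that methylates hydrogen sulfide and other thiols. It stood at 651, 637, 651, 486 and 592 in the MYC livers and at 569, 532, 709, 588 and 625 in the MYC+Ex3 livers. In the MYC tumours it was 489, 242 and 279, and in the MYC+Ex3 tumours 58.1, 97.2 and 36.4. The day 4 groups shared 1 range, MYC tumour replicate 1 reached its lower end and the other 2 were lower, and the MYC+Ex3 tumours were lowest. Mettl7b fell 5.26-fold in tumours (-2.42 ± 0.28 log2 units, limma adjusted p = 1.42e-04) and its day 4 effect was 0.00, with an interval from -0.46 to 0.47. The difference, -2.42 ± 0.36 (limma adjusted p = 0.00467), was not called with males only or with day 4 livers free of keratin reads. On day 4 its level was 50.8% to 85.8% of that of the highest gene of the library with MYC and 64.8% to 81.0% with MYC+Ex3.

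The 250 bases before the start of each of these genes are shown because these marker genes fell in tumours and were not called on day 4, from RefSeq on GRCm38.p6, on the strand of the gene. The 6 letters CTTTGA, the core of the TCF/LEF motif, were searched on both strands and would be in capitals; neither stretch holds them. They occur in 13.8% of 32851 such stretches.

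Sqrdl (Sqor), chr2:122771463-122771712, plus strand: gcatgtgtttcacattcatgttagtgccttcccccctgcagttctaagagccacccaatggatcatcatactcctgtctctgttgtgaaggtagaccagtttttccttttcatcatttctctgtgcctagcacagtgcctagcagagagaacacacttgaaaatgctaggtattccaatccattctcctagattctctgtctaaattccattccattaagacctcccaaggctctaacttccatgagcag

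Mettl7b, chr10:128960989-128961238, minus strand: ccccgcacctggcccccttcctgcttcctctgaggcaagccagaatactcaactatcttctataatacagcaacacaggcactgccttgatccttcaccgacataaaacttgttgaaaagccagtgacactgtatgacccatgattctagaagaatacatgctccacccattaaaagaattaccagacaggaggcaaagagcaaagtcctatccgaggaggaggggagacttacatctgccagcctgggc

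Both marker genes act in sulfur metabolism. Of 28 tested genes of sulfide, methionine and thiol metabolism, 2 had a called difference, Sqrdl and Mettl7b themselves. Over all genes tested, 0.142% had a called difference that was more negative. Both genes were given as markers of the comparison, so their count supports nothing about this list. In tumours 3 were called lower and 0 higher, the third being Bhmt (betaine-homocysteine methyltransferase, -1.24, limma adjusted p = 0.0384), against 1.16% lower over all genes, and on day 4 none was called. The Bhmt call was kept in 5 of 14 alternative settings and 8 of 16 fits without 1 library (limma adjusted p up to 0.32). The median effect was -0.01 in tumours and 0.00 on day 4, as over all genes (-0.01 and -0.01). Ethe1, the dioxygenase that acts after Sqrdl in sulfide oxidation, had an effect of -0.84 in tumours (limma adjusted p = 0.0513) and 0.04 on day 4. Tst, a sulfurtransferase of the same pathway, had 0.10 and 0.15, and Cth and Cbs, which produce hydrogen sulfide, had -0.22 and -0.25 in tumours. Selenbp2, close kin of a methanethiol oxidase, had -3.59 in tumours without passing the test (limma adjusted p = 0.0611).

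**Figure D2:**
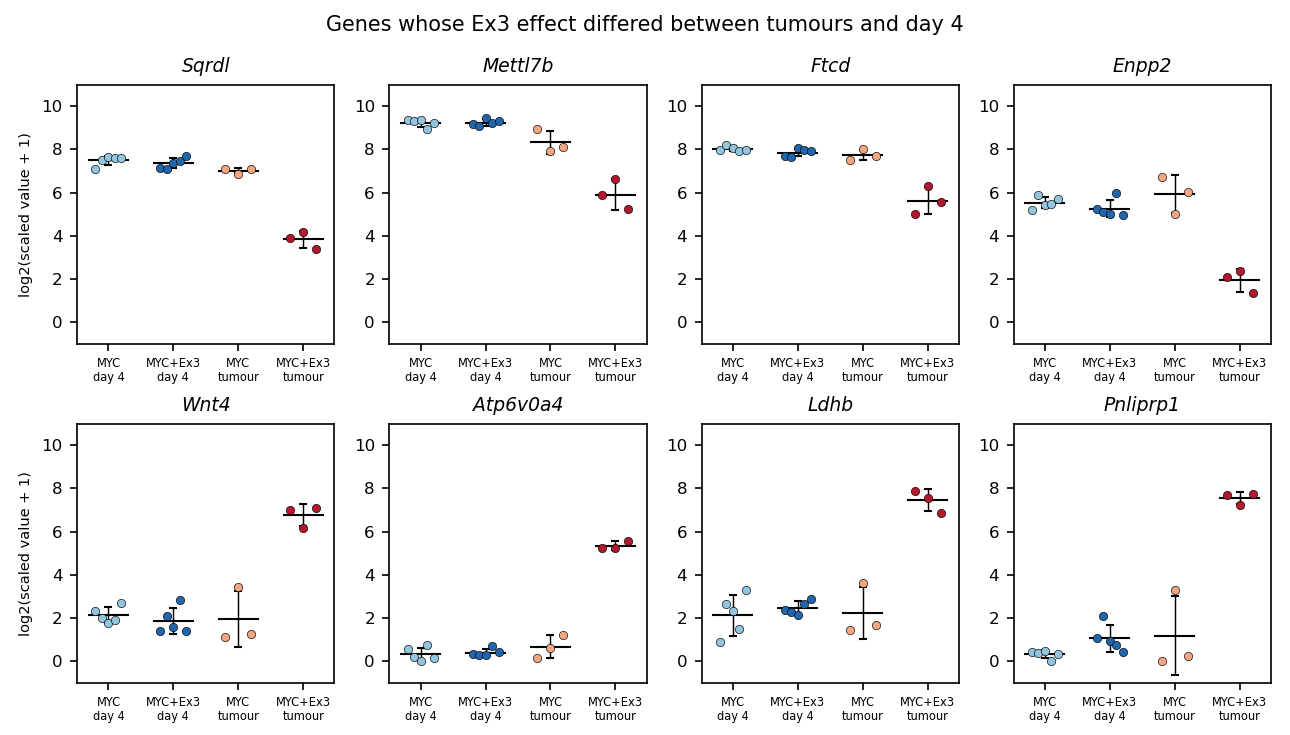
log2(scaled value + 1) in each of the 16 libraries for 4 genes with a more negative and 4 with a more positive Ex3 effect in tumours than on day 4. Points are libraries, bars the group mean and error bars its SD (n = 5, 5, 3 and 3); the day 4 groups overlap in all 8 panels and the MYC+Ex3 tumours stand apart.

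The other falls included enzymes of amino acid and histamine breakdown, a receptor, a secreted lipid enzyme and a cytochrome P450. Hnmt inactivates histamine by methylation. Its scaled value was 82.4 to 174 in MYC livers and 110 to 137 in MYC+Ex3 livers. In MYC tumours it was 112, 53.3 and 9.2, and in MYC+Ex3 tumours 1.86, 3.05 and 0.606. The MYC tumours were widely spread, and all MYC+Ex3 tumours lay below them. The difference for Hnmt was -3.86 ± 0.74 (limma adjusted p = 0.0388), and it was called in only 3 of the 16 fits that left out 1 library (limma adjusted p up to 0.16). Ftcd, which processes the last steps of histidine breakdown, was at 181, 255 and 209 in MYC tumours and at 31.7, 77 and 46.7 in MYC+Ex3 tumours. On day 4 it was at 243 to 292 and 198 to 263, so that only the MYC+Ex3 tumours were low. Ftcd had a difference of -1.94 ± 0.29 (limma adjusted p = 0.00512), called in all 16 of those fits.

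Enpp2, or autotaxin, the secreted enzyme that makes lysophosphatidic acid, was at 106, 31.5 and 64.1 in MYC tumours and at 3.26, 4.24 and 1.56 in MYC+Ex3 tumours. On day 4 it was at 35.7, 58.1, 41.7, 43 and 51.7 with MYC and at 37.4, 33.3, 31.4, 61.3 and 30.5 with MYC+Ex3. Its difference was -3.71 ± 0.48 (limma adjusted p = 0.00239), of a tumour effect of -3.99 and a day 4 effect of -0.27. Sucnr1, the receptor for extracellular succinate, was at 128, 32.9 and 75 against 4.52, 4.16 and 3.58 in tumours and at 64.7 to 170 against 52.3 to 116 on day 4. Its difference of -3.55 ± 0.53 (limma adjusted p = 0.00467) also held in every fit without 1 library. Cyp4f14, a fatty acid hydroxylase, was at 39.1, 73.4 and 38 against 6.99, 10.4 and 1.93 in tumours, and at 86.9 to 355 against 239 to 367 on day 4. For this gene the MYC tumours already lay below all 10 day 4 livers. Its difference was -3.35 ± 0.62 (limma adjusted p = 0.0299), called in 9 of 16 fits without 1 library and 8 of 13 alternative settings.

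The remaining named falls were of genes of varied roles. Pyroxd2, a mitochondrial oxidoreductase, was at 38.6, 24.1 and 38.6 in MYC tumours and 4, 4.48 and 4.75 in MYC+Ex3 tumours, against 11.3 to 15.9 and 8.28 to 15.5 on day 4. Here the MYC tumours lay above the day 4 livers and the MYC+Ex3 tumours below them (difference -2.44 ± 0.35, limma adjusted p = 0.00397). Arhgap22, a GTPase-activating protein, was at 10.1, 9.55 and 15.2 against 0.808, 0.394 and 3.5 in tumours and at 3.44 to 6.34 against 3.4 to 6.12 on day 4, so that its MYC tumours lay above the day 4 livers and MYC+Ex3 tumour replicate 3 at their lower end. Its difference of -2.46 ± 0.49 (limma adjusted p = 0.0445) was called in only 2 of 16 fits without 1 library. Fhit, a diadenosine triphosphate hydrolase, went from 24.8, 11.5 and 45.9 in MYC tumours to 1.18, 3.03 and 0.579 in MYC+Ex3 tumours. Homer2, a scaffold protein, went from 10.6, 17.9 and 23.3 to 0.605, 1.16 and 0.458. Their differences were -3.21 ± 0.55 and -3.16 ± 0.46 (limma adjusted p = 0.0158 and 0.00467). Without MYC+Ex3 tumour replicate 1 or 3 the differences of Fhit and Spatc1l were not called. Spatc1l differed by -3.63 ± 0.61 (limma adjusted p = 0.0121), from 2 to 7 reads per MYC+Ex3 tumour. Mug2, a secreted protease inhibitor whose reads can be shared with its paralogue Mug1, differed by -3.27 ± 0.59 (limma adjusted p = 0.0246), called in 10 of 16 fits without 1 library and 8 of 13 alternative settings.

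The remaining falls were chosen for mention after their values were seen, because the naming rule stopped at 12 or left out small RNAs and predicted genes. They were Kynu (kynureninase of tryptophan breakdown), Rdh5 (a retinol dehydrogenase), Rab32 (a small GTPase), Nostrin, Asic5 (an ion channel), Them7, and Mir130a, Gm826 and 5330417C22Rik. Rab32 had 83.3, 60.3 and 78.5 in MYC tumours and 21.9, 22.3 and 18.7 in MYC+Ex3 tumours, with 71.2 to 111 over the 10 day 4 livers. Its difference was -1.54 (limma adjusted p = 0.0051) and its 3 MYC+Ex3 tumours lay close together. Mir130a was the 1 gene of the 46 with an unadjusted p under 0.05 on day 4, in the opposite direction: its day 4 effect was 2.02, it was at 0 in all 5 MYC livers and at 7.06, 12.7, 0, 8.79 and 0 in MYC+Ex3 livers. Its annotated length is that of a short hairpin, and a library of total RNA does not measure the mature miRNA. Over the 22 falls, the 3 MYC+Ex3 tumours lay below all 10 day 4 livers in 19, and MYC+Ex3 tumour replicate 3 was the lowest of its group in 17. That library was the only tumour read as female. The share of all genes tested with tumours below the livers was not computed, so these counts only describe genes chosen by this contrast.

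Of the 24 genes with a more positive effect in tumours, 14 had a mean scaled value under 1 over the 10 day 4 livers, and in 23 the 3 MYC+Ex3 tumours lay above all 10 of those livers. The share of all genes tested in that order was not computed. The 24 were chosen by this contrast, and 8 reached the filter only through those 3 tumours, so these counts describe them and support nothing. Wnt4 encodes a secreted Wnt ligand. It was at 4.01, 3.04, 2.37, 2.72 and 5.4 in MYC livers and at 1.64, 3.33, 2.01, 6.13 and 1.62 in MYC+Ex3 livers. In MYC tumours it was 1.21, 9.87 and 1.43, and in MYC+Ex3 tumours 128, 71 and 134. The other 13 libraries all stayed under 10, with MYC tumour replicate 2 the highest of them. Wnt4 rose 26.6-fold in tumours (4.80 ± 0.54, limma adjusted p = 1.10e-04), its day 4 effect was -0.27 with an interval from -1.15 to 0.62, and the difference was 5.07 ± 0.68 (limma adjusted p = 0.00267).

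Atp6v0a4, a subunit of the proton pump of acid-secreting kidney cells, gave the smallest p among the rises. It was at 0 to 0.672 over the 10 day 4 livers, at 0.124, 0.554 and 1.32 in MYC tumours and at 36.9, 36.5 and 47 in MYC+Ex3 tumours. Its difference was 4.60 ± 0.37 (limma adjusted p = 1.75e-05), called in all 13 alternative settings and all 16 fits without 1 library. Atp6v0a4, Tmem213 and Sertm1 each had a scaled value of at least 1 in only 1 of the other 13 libraries. They reached the filter only with the help of the MYC+Ex3 tumours, so they could be tested only because they were high there. Tmem213 lies within Atp6v0a4 on the opposite strand and rose with it, from 0 to 1 read in MYC tumours to 8 to 16 reads in MYC+Ex3 tumours. Its difference was called in 7 of 16 fits without 1 library. Whether the authors' counting used strand is not given in the sources used here, so the reads of these genes cannot be told apart.

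Ldhb, the heart-type subunit of lactate dehydrogenase, was at 1.72, 11.2 and 2.19 in MYC tumours and 236, 189 and 117 in MYC+Ex3 tumours. On day 4 it was at 0.855 to 8.87 with MYC and 3.43 to 6.44 with MYC+Ex3. The difference was 4.88 ± 0.74 (limma adjusted p = 0.0054). Pnliprp1, a relative of pancreatic lipase, was at 0, 8.75 and 0.194 against 208, 151 and 213 in tumours. On day 4 it was at 0 to 0.404 in MYC livers and at 1.12, 3.27, 0.912, 0.695 and 0.367 in MYC+Ex3 livers, where the groups overlapped by 1 library (effect 0.74, interval -0.31 to 1.78). Its difference was 5.65 ± 0.80 (limma adjusted p = 0.00397).

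Several rises were of genes best known outside the liver. Myot encodes myotilin, a protein of the muscle sarcomere. It had at most 2 reads in each of the 13 libraries other than MYC+Ex3 tumours, and 167 to 752 reads in those, at scaled values of 115, 40.8 and 25.1. Its fitted difference of 5.66 ± 0.49 (limma adjusted p = 2.44e-05) depends on the pseudocount of 1, since the other groups are at or near 0. Myot and Gdpd2 reached the filter through the 3 MYC+Ex3 tumours alone, and without any 1 of these they were not tested. Gdpd2, a phosphodiesterase, was at 0 to 0.613 in those 13 libraries and at 18.4, 7.6 and 14.6 in MYC+Ex3 tumours (difference 3.80 ± 0.37, limma adjusted p = 9.84e-05). Sertm1 was at 0.143, 11.6 and 0.102 against 138, 72.2 and 69.7 in tumours and at no more than 0.424 on day 4 (difference 5.13 ± 0.83, limma adjusted p = 0.0081, not called without MYC+Ex3 tumour replicate 1). Prkar1b, a regulatory subunit of protein kinase A, was at 1.13, 2.52 and 3.32 against 40.9, 28.6 and 45.6 (difference 3.69 ± 0.46, limma adjusted p = 0.00169).

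Gpr64, an adhesion receptor, was at 0, 1.96 and 0.067 in MYC tumours and 26.5, 15.6 and 25 in MYC+Ex3 tumours (difference 3.66 ± 0.51, limma adjusted p = 0.00381). Dmrt2, a transcription factor, was at 2.46, 0.282 and 0 against 71.7, 30.1 and 16.9 (difference 4.2 ± 0.78, limma adjusted p = 0.0299), and it kept its call in 8 of 16 fits without 1 library. The rises outside the naming rule, listed after their values were seen, included Cdh16 (a cadherin of kidney tubules), Upk3a (a uroplakin of bladder epithelium), Amy2b (an amylase), Vil1 (villin of the brush border), Pou2f3 (a transcription factor), Reep1, Pdgfrl, Serpina1f, Dnajc12, 2510009E07Rik and Gm5294. Reep1, which shapes the endoplasmic reticulum, was at 5.63, 18.5 and 5.56 in MYC tumours and 108, 85.2 and 94 in MYC+Ex3 tumours, with 4.63 to 10.3 on day 4. Upk3a was at 0 in all 13 other libraries and at 8.25, 2.44 and 9.88 in MYC+Ex3 tumours, through which alone it reached the filter.

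A single MYC tumour carried low levels of many of these transcripts. MYC tumour replicate 2 was the highest of the 3 MYC tumours for 16 of the 24 rises, among them Wnt4, Ldhb, Sertm1 and Pnliprp1. The number of genes with a called positive difference was 175 without it, against 24 with it. This library also had the highest sums of erythroid and neutrophil markers among the MYC tumours, 1276 and 1967 against 170.5 to 251.7 and 146.8 to 848.1 in the other two. The part of these cells in its levels was not tested. MYC+Ex3 tumour replicate 2 was the lowest of its group for 16 of the 24 rises and the highest of its group for 16 of the 22 falls.

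**Figure D3:**
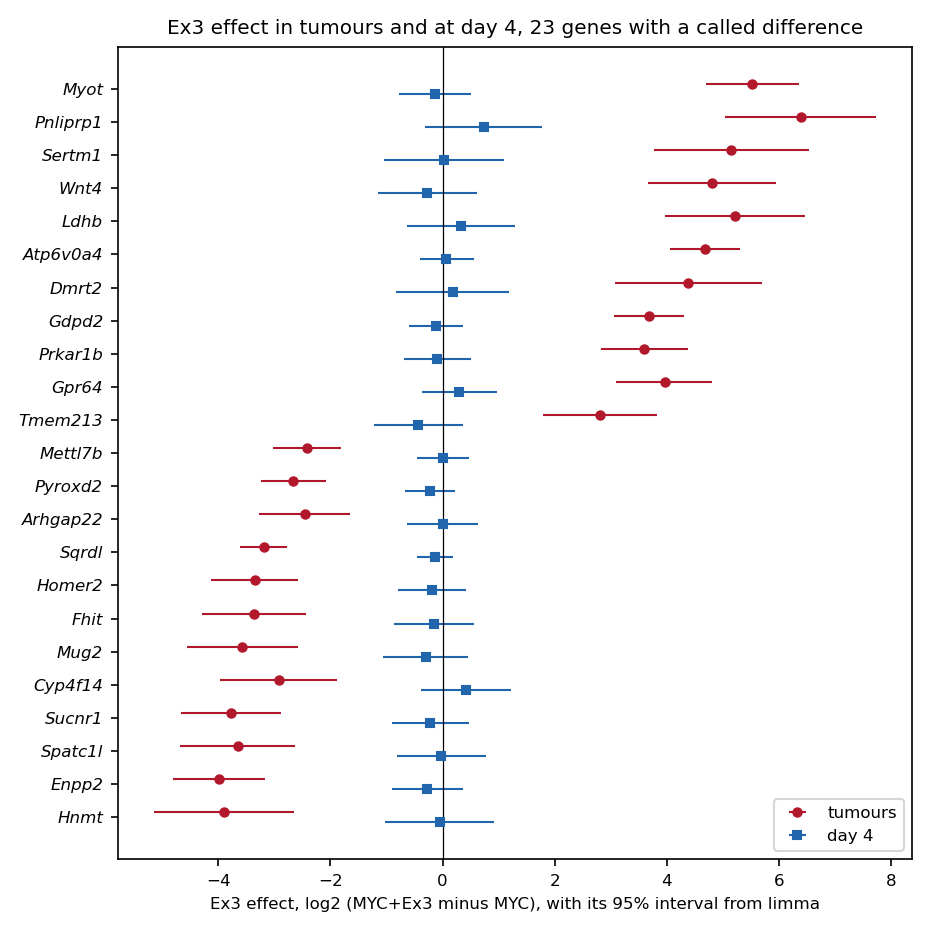
Ex3 effect in tumours (circles) and on day 4 (squares) with 95% intervals from limma, as log2 differences, for 23 named genes with a called difference, from the most positive difference at the top to the most negative at the bottom. Every day 4 interval includes 0, and no tumour interval does.

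The 5 genes called on day 4 were Mir670, Csrp2, Sp5, Slc1a4 and Teddm2, and all 5 were also called higher in the tumours (100% of the day 4 calls, 1.53% of the tumour calls), and 0 of the 5 had a called difference. Sp5, a transcription factor of the SP family induced by Wnt signals, was at 2.1, 6.61, 1.56, 0.286 and 4.58 in MYC livers and at 36.7, 22.2, 24.6, 10.7 and 21 in MYC+Ex3 livers. In tumours it was 0, 0.471 and 0.15 against 35.1, 34 and 48. Neither pair of groups overlapped, and the MYC tumours held at most 3 reads each. Sp5 rose by 2.74 on day 4 (interval 1.86 to 3.62, limma adjusted p = 0.0321) and by 5.05 ± 0.53 in tumours (limma adjusted p = 7.57e-05). The difference of 2.31 ± 0.67 was not called (limma adjusted p = 0.29). In livers without MYC the effect of Ex3 on Sp5 was 2.61 (limma adjusted p = 8.25e-04, fit of all 33 libraries).

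The promoter of Sp5 is shown as that of a target which responded in both settings, from RefSeq on GRCm38.p6. The capitals mark CTTTGA, found at -204 and -104 from the start of the gene.

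Sp5, chr2:70474673-70474922, plus strand: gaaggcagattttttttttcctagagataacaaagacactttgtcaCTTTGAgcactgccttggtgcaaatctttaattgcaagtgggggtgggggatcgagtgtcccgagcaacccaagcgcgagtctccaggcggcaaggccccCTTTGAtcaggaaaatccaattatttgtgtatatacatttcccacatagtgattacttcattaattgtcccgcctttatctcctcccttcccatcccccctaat

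The same letters were found in 16 of the 102 genes called higher in tumours that have such a stretch in RefSeq (15.7%), in 25 of 121 called lower (20.7%), in 1 of 16 and 3 of 17 of the genes with a more positive and a more negative difference, and in 13.3% of all tested genes with a stretch. A match describes these letters only.

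Slc1a4, a neutral amino acid transporter, was at 39.5, 49.9, 36.6, 17.4 and 32.4 in MYC livers and at 168, 147, 117, 68.2 and 145 in MYC+Ex3 livers. In tumours it was at 17.5, 16.5 and 33.9 with MYC and at 111 ± 20.1 (SD, n = 3) with MYC+Ex3, the lowest of which was 87.3, so neither pair of groups overlapped. Its effect was 1.86 on day 4 (limma adjusted p = 0.0352) and 2.30 in tumours (0.00327), a difference of 0.44 ± 0.47. Csrp2, a LIM domain protein, lay in narrow ranges: 143 to 164 against 236 to 267 on day 4, and 117, 155 and 167 against 241, 253 and 239 in tumours. It rose 1.62-fold on day 4 and 1.67-fold in tumours (0.69 and 0.75 log2 units, limma adjusted p = 0.0126 and 0.00291), and the difference was 0.06 ± 0.15. Teddm2 was at 1.5 to 5.02 against 7.04 to 25.2 on day 4 and 0.221, 2.8 and 0.629 against 36.3, 29.1 and 36.4 in tumours (2.29 and 4.15, limma adjusted p = 0.041 and 1.22e-04). The day 4 calls of Sp5, Slc1a4 and Teddm2 were each kept in 7 of 14 alternative settings and in 7, 5 and 4 of the 16 fits without 1 library. That of Csrp2 was kept in 12 and 13 and that of Mir670 in 13 and 16.

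Mir670 had the smallest p on day 4. It was at 0.844, 0.366, 0.5, 0.916 and 0.7 in MYC livers and at 11.1, 9.04, 19.2, 6.45 and 9.08 in MYC+Ex3 livers, and at 0, 0 and 0.481 against 33.1, 16.8 and 17 in tumours. The groups did not overlap in either setting, and the lower groups held at most 2 reads per library. Its effect was 2.77 on day 4 (limma adjusted p = 5.32e-04) and 4.28 in tumours (limma adjusted p = 8.75e-06). The hairpin lies inside the non-coding host gene Mir670hg on the same strand, so these reads cannot be told from those of the host, and mature miRNA is not measured by such libraries. The mature forms of the locus in RefSeq, with the seed in capitals, show what it encodes.

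mmu-miR-670-5p: aUCCCUGAguguauguggugaa

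mmu-miR-670-3p: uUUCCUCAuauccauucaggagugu

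Other known targets were called in tumours and not on day 4, and their difference was not called. The authors' deposited table calls several of them on day 4 as well, with adjusted p-values of 0.00167 for Axin2, 6.87e-04 for Lgr5, 2.01e-14 for Tnfrsf19, 2.96e-07 for Rhbg, 0.0411 for Notum and 0.048 for Tbx3. Here the day 4 effect of Axin2 was called in 4 of 14 alternative settings and those of Lgr5, Tnfrsf19 and Rhbg in 3 each. Axin2, a negative feedback regulator of the pathway, was at 6.04, 10.2, 7.15, 1.4 and 21.4 in MYC livers and at 72.1, 70.6, 30.6, 21.5 and 47.6 in MYC+Ex3 livers. In tumours it was 3.5, 8.44 and 1.1 against 132, 87.7 and 116. Its day 4 groups did not overlap, by 21.4 against 21.5, and its effect was 2.47 on day 4 (unadjusted p = 2.51e-04, limma adjusted p = 0.293) and 4.64 in tumours (limma adjusted p = 0.00128), a difference of 2.17 ± 0.86 (0.587). Lgr5, a receptor for R-spondins, was at 1.3 to 10.8 against 16.2 to 41.9 on day 4 and 0.748, 3.18 and 0.455 against 46.3, 29.8 and 36.9 in tumours. Its day 4 effect had an interval from 1.10 to 2.89 (limma adjusted p = 0.293), its tumour effect was 4.11, and the difference was 2.12 ± 0.69 (limma adjusted p = 0.409). Tnfrsf19, a receptor of the TNF family induced by Wnt, had a difference of 3.03 ± 0.63 (limma adjusted p = 0.0554) and was at 10.6 to 14.2 against 28.7 to 55.7 on day 4 and 2.45, 14.4 and 0.993 against 131, 99.3 and 121 in tumours.

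Rhbg was at 14.7 to 48.2 in MYC livers and at 1.31, 13.9 and 0.928 in MYC tumours, and at 53.7 to 195 in MYC+Ex3 livers and 228, 187 and 165 in MYC+Ex3 tumours. Its effects were 2.22 on day 4 (unadjusted p = 3.45e-04, limma adjusted p = 0.324) and 5.57 in tumours (limma adjusted p = 1.10e-04), with a difference of 3.35 ± 0.80 (0.117). Glul was at 407, 416, 444, 152 and 427 against 619, 563, 873, 550 and 764 on day 4 and at 145, 341 and 162 against 540, 584 and 539 in tumours, effects of 0.94 (unadjusted p = 0.00419) and 1.47 (limma adjusted p = 0.0466). The tumour call of Glul was kept in 2 of 16 fits without 1 library and 7 of 14 alternative settings (limma adjusted p up to 0.222). MYC liver replicate 4, which has keratin reads, was the lowest MYC liver for Glul, Axin2, Lgr5, Sp5, Rhbg and Slc1a4. Glul stood at 92.1% to 95.7% of the highest gene in MYC+Ex3 tumours. For Rhbg all 3 MYC tumours lay below all 5 MYC livers.

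**Figure D4:**
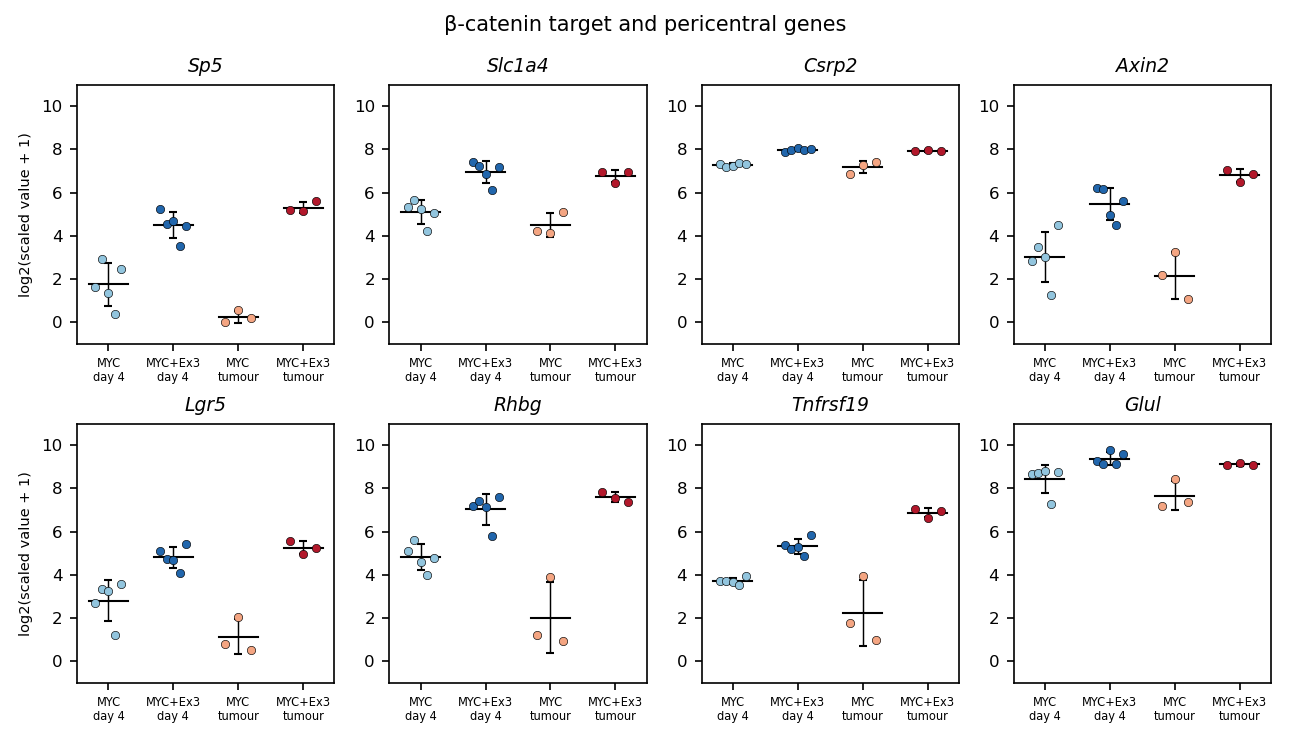
log2(scaled value + 1) in each of the 16 libraries for 8 genes, with group means (bars) and SD (n = 5, 5, 3 and 3). They are β-catenin target and pericentral genes, except Csrp2, which is on neither list and was called on day 4. In all 8 panels the 5 MYC+Ex3 livers lie above the 5 MYC livers and the 3 MYC+Ex3 tumours above the 3 MYC tumours. Over all genes tested, groups did not overlap for 0.613% on day 4 and 17.7% in tumours. Of named targets not shown, day 4 groups overlapped for Tbx3, Nkd1, Avpr1a and Wif1 and not for Notum, Slc1a2 and Lect2.

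No gene was called lower with Ex3 on day 4 here. The 4 with the smallest p among those allowed by the naming rule were Cxcl1 (a neutrophil chemokine, -1.57, unadjusted p = 2.20e-04), Kcnt2 (-1.41, 0.00152), Sult2a7 (-2.09, 0.00251) and Gsn (-0.86, 0.00301), with limma adjusted p of 0.293, 0.873, 1 and 1. Cxcl1 was at 135, 232, 273, 260 and 132 in MYC livers and at 58.6, 41.2, 49, 141 and 72.6 in MYC+Ex3 livers. In tumours it was at 96, 54.1 and 136 against 54.5, 89.2 and 82.7, with full overlap and an effect of -0.27. The authors' deposited table does call Cxcl1 and Sult2a7 lower on day 4, with log2 changes of -0.76 and -0.89 (adjusted p = 0.0133 and 5.65e-04). It does not call Gsn (adjusted p = 0.512) and gives no adjusted p for Kcnt2.

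Gene lists describe the wider pathways. Of 22 Wnt feedback and common target genes, 11 were called higher in tumours (0.942% of all genes tested) and 0 lower, 1 (Sp5) was called higher on day 4 (0.0323% of all genes), and 0 had a called difference. Their median effect was 1.76 in tumours and 0.31 on day 4, against -0.01 and -0.01 over all genes tested. Those called in tumours included Nkd1 (4.28) and Notum (4.50), secreted or intracellular feedback inhibitors, Tcf7 (3.67), a partner of β-catenin, and Wif1 (2.93), a Wnt-binding inhibitor that was at 0 to 0.932 on day 4 and had a difference of 2.54 (limma adjusted p = 0.052). Of 24 genes for β-catenin and its regulators, such as Dvl1, none was called in any of the 3 comparisons (medians 0.03 and 0.00). Of 33 pericentral genes, 9 were called higher in tumours and 1 (Slc1a4) on day 4, none lower and none with a called difference, and all 33 had a day 4 effect above 0 (7267 of 15501 genes overall). The medians were 1.34 and 0.50. Lect2, a secreted hepatokine, was at 149 to 317 against 360 to 586 on day 4 and at 17.5, 105 and 33.8 against 306, 289 and 284 in tumours (limma adjusted p = 0.00261 for tumours).

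Periportal genes were called only in the lower direction in tumours. Of 32, 7 were called lower in tumours (1.16% of all genes tested) and 0 higher, none was called on day 4, and 1, Ftcd, had a called difference (0.142% of all genes, more negative). The medians were -0.73 in tumours and -0.13 on day 4. Sds, a serine dehydratase, was at 289, 340 and 351 in MYC tumours and 4.94, 69.4 and 14.8 in MYC+Ex3 tumours. On day 4 it ranged from 130 to 354 and from 110 to 414, so the groups overlapped. Its effects were -4.12 (limma adjusted p = 0.00439) and -0.26, and the difference of -3.87 ± 0.88 was not called (0.0892). Gls2, the liver glutaminase, had a difference of -1.47 (limma adjusted p = 0.0556). Sdsl (-2.69 in tumours), Uroc1 (-1.94, urocanate hydratase) and Gldc (-2.06, the glycine cleavage decarboxylase) were also called lower in tumours, and Sdsl had a day 4 effect of -0.80 (unadjusted p = 0.0187).

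Growth and hepatocyte lists gave few calls. None of 32 S phase and mitosis genes was called in either setting or in the difference, with medians of 0.37 in tumours and 0.36 on day 4: Mki67 was at 135, 312 and 252 against 321, 341 and 252 in tumours. All 32 had a positive effect in tumours and 29 on day 4, against 7464 and 7267 of the 15501 genes tested. Genes are not independent replicates. None of 25 MYC target and ribosome biogenesis genes (medians 0.15 and 0.03), 25 oncofetal and progenitor genes (0.07 and -0.09), 27 lipid and sterol synthesis genes (-0.15 and -0.03), 25 glycolysis and gluconeogenesis genes (0.05 and -0.07), 20 serine synthesis and ATF4 genes (0.16 and -0.01) or 19 female-biased genes (0.60 and -0.65) was called. Of the MYC target and ribosome biogenesis genes, 24 had a positive effect in tumours and 15 on day 4. Of 28 genes for YAP/TAZ and their targets, Amotl2 and Crim1 were called lower in tumours (-1.56 and -1.17, limma adjusted p = 0.0432 and 0.0233; medians -0.43 and -0.02). Genes called lower in tumours were 1.16% of all genes tested. The calls of Amotl2 and Crim1 were kept in 5 and 12 of 16 fits without 1 library. Of 29 mature hepatocyte genes, Ugt2b1, which is also on the list of 19 male-biased genes as its only call, and Tdo2 were called lower in tumours (-1.63 and -1.50, limma adjusted p = 0.0341 and 0.0466; medians -0.09 and -0.01, and -0.73 and 0.31 for the male-biased genes). The calls of Ugt2b1 and Tdo2, set against the same 1.16% of all genes, were kept in 11 and 2 of 16 such fits. Of 22 acute phase genes, Saa1, Saa2 and Hamp2 were called lower in tumours (-2.57, -3.16 and -3.61), against 1.16% of all genes, the call of Hamp2 in 10 of 16 fits without 1 library. None of the 22 had a day 4 effect above 0, against 7267 of 15501 genes overall (medians -0.19 and -0.52).

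Markers of other cells were examined beside these results. None of 15 macrophage, 20 endothelial, 18 stellate cell and fibroblast, 18 lymphocyte, 11 erythroid or 11 neutrophil markers was called in any comparison, nor any of 5 epidermal keratin genes. Of 15 cholangiocyte markers Pkhd1 was called lower in tumours (-1.94, limma adjusted p = 8.94e-04), against 1.16% of all genes tested. The medians in tumours were -0.12, -0.51, -0.63, -0.60, 2.63, 2.18, 0.11 and -0.55 in that order, and on day 4 -0.22, 0.00, -0.09, -0.17, -0.04, -0.48, 1.21 and -0.18. In tumours 6 macrophage, 3 endothelial, 2 stellate cell and fibroblast and 1 lymphocyte markers had a positive effect, against 7464 of 15501 genes tested. On day 4, 0 neutrophil markers had one. Cd74, on the lymphocyte list, was at 115, 190 and 209 in MYC tumours and 66.2, 53.3 and 59.7 in MYC+Ex3 tumours (limma adjusted p = 0.08). The authors' deposited table calls it lower in tumours (adjusted p = 1.29e-07). All 11 erythroid and all 11 neutrophil markers had a positive effect in tumours: from the lowest to the highest library the erythroid markers summed to 170.5, 251.7 and 1276 in MYC tumours and 907.5, 1308 and 1379 in MYC+Ex3 tumours. The neutrophil markers summed to 146.8, 848.1 and 1967 against 1517, 2019 and 2290. In both lists the MYC tumour that reached the level of the MYC+Ex3 tumours was replicate 2, the one highest for 16 of the 24 rises, and no marker of either list was at 0 in all 16 libraries. The part of these cells in the rises described above was not tested.

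**Figure D5:**
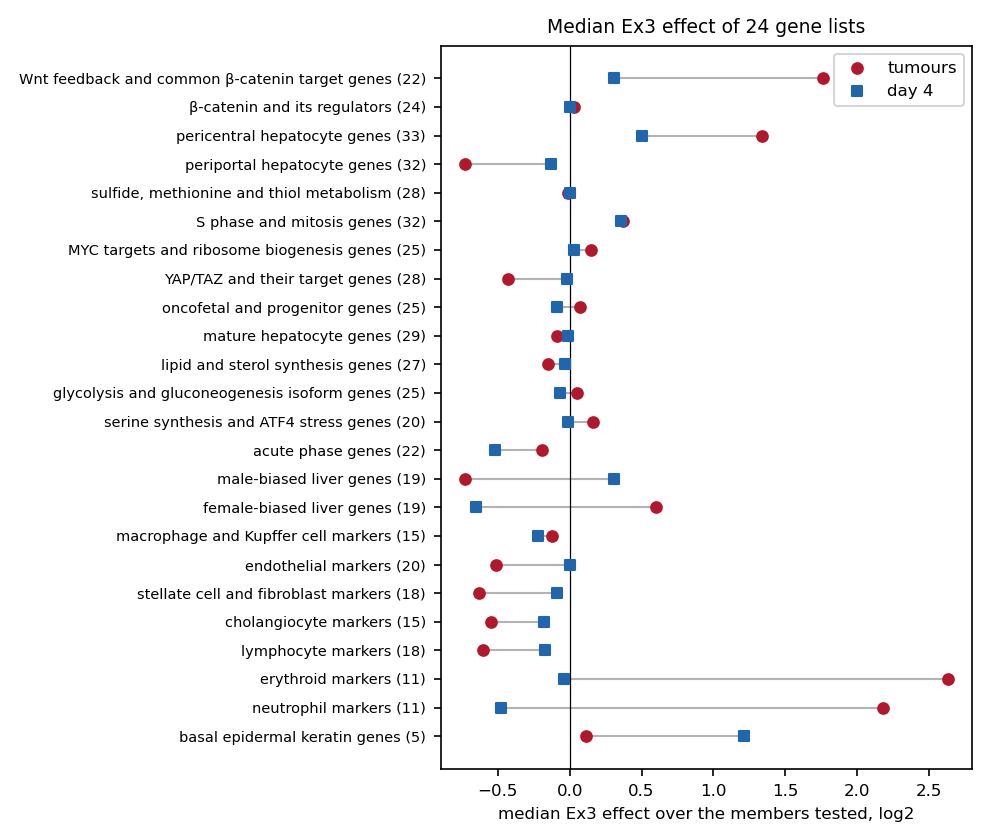
Median Ex3 effect in tumours (circles) and on day 4 (squares), as log2 differences, over the tested members of 24 gene lists, whose number is in parentheses. Wnt target, pericentral, erythroid and neutrophil lists have the highest medians in tumours and the periportal and male-biased lists the lowest.

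Genes called in tumours were also examined on day 4. They were chosen by their tumour effect, so low ratios of the day 4 effect to the tumour effect are partly built in. The 2 effects share 1 estimate of spread per gene, so genes called in tumours also reach a small p on day 4 more easily. The ratios and counts of small p below therefore only describe these genes. Of the 146 genes called higher in tumours, 101 (69.2%) had a day 4 effect above 0, against 55% of all genes with a positive tumour effect. Their median effect was 2.29 in tumours and 0.18 on day 4, and 43 had an unadjusted p under 0.05 on day 4. A day 4 effect of at least 0.5 of that in tumours was found for 17, and one under 0.1 of it for 74. Of all 7464 genes with a positive tumour effect, 169 had an unadjusted p under 0.05 and a positive effect on day 4. Among those 7464, 2081 reached 0.5 of the tumour effect and 3860 stayed under 0.1 of it. Their median tumour effect was only 0.22, so their ratios are not comparable with those of the 146. Of the 180 called lower, 146 (81.1%) had a day 4 effect below 0, against 60.4% of all genes with a negative tumour effect. The medians of the 180 were -1.78 and -0.16, and 14 had an unadjusted p under 0.05 with a day 4 effect below 0. Only 1 of these 180 reached 0.5 of its tumour effect on day 4. Of all 8037 genes with a negative tumour effect, 124 had such a p with an effect below 0, and 2256 reached 0.5. Their median tumour effect was -0.28, so the same limit holds. Across genes, which are not independent replicates, Pearson's r between the effects was 0.25 over all 15501 genes and 0.57 over the 326 called in tumours.

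The authors' deposited table calls 33 genes higher and 4 lower with Ex3 on day 4 and 214 higher and 401 lower in tumours. All 5 day 4 calls and 253 of the 326 tumour calls made here are among them in the same direction. The authors' calls are out of 21671 genes and rest on the same libraries as those made here. Overlaps between the 2 sets of calls therefore support nothing. None of the 46 genes with a called difference is called on day 4 in the authors' deposited table, which gives 19 of them no adjusted p there. In tumours the authors' deposited table calls 21 of the 22 falls in the same direction and 16 of the 24 rises, with no adjusted p for 1 fall and 6 rises. The other two rises are Pnliprp1, with a log2 change of 0.71 (adjusted p = 0.323) in the authors' deposited table against 6.39 here, and Gpr64, with 0.82 (0.259) against 3.96. Sertm1 and Tmem213, with no adjusted p, have 0.68 and 1.22 in the authors' deposited table, against 5.15 and 2.81 here. For Sqrdl the authors' deposited table gives log2 changes of -0.09 on day 4 and -2.94 in tumours, for Mettl7b 0.03 and -1.88, and for Wnt4 -0.07 and 2.76. For Axin2 it gives 0.82 and 3.16.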

How the data were processed

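RNA-seq of mouse liver tissue was deposited as 1 table of RPKM values for 33 libraries, with the authors' log2 fold changes and adjusted p-values beside them. Per the submitters' processing notes, TopHat2 2.0.8, TopHat, SAMtools, featureCounts 1.4.5-p1, DESeq2 and the mouse build mm9 were used. Library preparation was for stranded total RNA, per the labels' protocols, and the setting of strand in counting is not given in the sources used here. The deposited RPKM columns with MYC summed to 326490 to 367522 on day 4 and 78172 to 97790 in tumours, so each was rescaled to a sum of 1000000. Values were taken as log2(scaled value + 1). Genes with a scaled value of at least 1 in at least 3 of the 16 libraries with MYC were tested. Each of the 4 groups had its own mean in limma 3.58.1 (R 4.3.3, trended variance), and 3 contrasts were tested with Benjamini-Hochberg adjustment over 15501 genes and a threshold of 0.05. Effects without MYC came from the same fit over all 33 libraries. Reads per gene were recovered from the steps of the RPKM values and used only to state depth. Since the values are RPKM, no count test was run. The statistics were tested on simulated data. Tables and figures used Python 3.11.15, pandas 2.3.3, numpy 2.4.6 and matplotlib 3.10.9.

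Groups came from the sample titles. The markers, the 24 gene lists and the comparison were chosen with earlier results of these data known. Named genes were the 12 most positive and 12 most negative called differences and the 6 largest rises and falls of each effect, with a mean scaled value of at least 5 in a group, without predicted genes, small RNAs and pseudogenes. Where none was called, the 4 with the smallest p were named, then up to 4 called members of each list, and a fixed set of marker genes. Alternatives covered the pseudocount, the filter, the rescaling, the samples fitted, weights, sex and keratin reads, and leaving out each library. There were 0 columns of samples outside the series. Promoter and miRNA sequences came from RefSeq on GRCm38.p6, and no coordinate of the files' build was used. Some results that the naming rule would give are not reported here.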

Additional observations from a re-analysis of the deposited data

Results flagged for a closer look

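Among 160 groups of 5 day 4 livers, for the named genes that reach a scaled value of 5, 18 held a library far from the other 4, where 1 in 20 would be about 8. That share holds for independent, normally distributed values. These were unlogged values of genes measured in the same livers, so nothing follows from the excess. MYC liver replicate 1 stood apart for Sqrdl at 137 (lowest of its group, the others 180 to 197). MYC liver replicate 3 stood apart for Ptgds at 34.9 (highest of its group, the others 7.13 to 14.9). MYC liver replicate 4 stood apart for H19 at 259 (highest of its group, the others 1.46 to 11), Sprr1a at 78.9 (highest of its group, the others 0.605 to 11.9), Glul at 152 (lowest of its group, the others 407 to 444) and Krt5 at 6.84 (highest of its group, the others 0 to 0.298). MYC liver replicate 5 stood apart for Kcnt2 at 20.7 (highest of its group, the others 4.46 to 6.23). MYC+Ex3 liver replicate 3 stood apart for Ugt2b1 at 792 (highest of its group, the others 388 to 467) and Krt14 at 17.2 (highest of its group, the others 0 to 4.49). MYC+Ex3 liver replicate 4 stood apart for Enpp2 at 61.3 (highest of its group, the others 30.5 to 37.4), Teddm2 at 7.04 (lowest of its group, the others 20.7 to 25.2), Sdsl at 39.1 (highest of its group, the others 12 to 19.5), H19 at 120 (highest of its group, the others 1.9 to 9.53), Saa2 at 235 (highest of its group, the others 49.6 to 93.6) and Tbx3 at 17.5 (lowest of its group, the others 51.6 to 58.5). MYC+Ex3 liver replicate 5 stood apart for Shmt1 at 314 (highest of its group, the others 252 to 269), Hamp2 at 393 (highest of its group, the others 40.3 to 133) and Sult2a1 at 331 (highest of its group, the others 0 to 0.551). It was the only liver of its group read as female. In MYC livers Sult2a1, a female-biased gene, was at 157 and 240 in females and 0 to 0.587 in males. Hamp2 was at 302 and 322 against 63.1 to 132. In MYC+Ex3 tumours Sult2a1 was at 246 in the female against 234 and 262, and Hamp2 at 6.82 against 14.7 and 12.3. The part of sex in these values was not tested. MYC+Ex3 liver replicate 4 accounts for 6 of the 18 and MYC liver replicate 4 for 4, and both are livers with keratin reads. For Sqrdl the low library was a MYC liver, and its value lies above every MYC tumour.

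The Ex3 effect differed between tumours and day 4 by limma's test of the difference itself for 24 named genes. In log2 units of the tumour effect minus the day 4 effect, the positive differences were Myot 5.66, Pnliprp1 5.65, Sertm1 5.13, Wnt4 5.07, Ldhb 4.88, Atp6v0a4 4.60, Dmrt2 4.2, Gdpd2 3.80, Prkar1b 3.69, Gpr64 3.66 and Tmem213 3.24. The negative ones were Hnmt -3.86, Enpp2 -3.71, Spatc1l -3.63, Sucnr1 -3.55, Cyp4f14 -3.35, Mug2 -3.27, Fhit -3.21, Homer2 -3.16, Sqrdl -3.05, Arhgap22 -2.46, Pyroxd2 -2.44, Mettl7b -2.42 and Ftcd -1.94. Tumours and day 4 livers differ in the Cre used, the time and the tissue, which cannot be told apart.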

How the results depend on the processing

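No paired analysis was possible because the titles carry a number of each sample and no replicate number shared between groups. For the 24 genes with a called difference that the naming rule takes, 0 changes of sign were seen over the alternatives and the fits without 1 library, while the numbers of called genes moved. For the difference of effects, 46 calls became 15 with RPKM as deposited, 214 in the fit of all 33 libraries, 76 with sample quality weights, 13 with only day 4 livers without keratin reads and 4 with males only, and 21 to 227 when 1 library was left out. For the tumour effect, 326 became 118 with RPKM as deposited, 963 in the fit of all 33 libraries, 99 with males only and 30 with only the groups compared, and 139 to 594 without 1 library. For the day 4 effect, 5 became 2 with a pseudocount of 0.1, 2 without a filter, 13 with RPKM as deposited, 20 in the fit of all 33 libraries, 25 with weights, 2 with sex and 8 with keratin reads as a covariate, 2 without livers with keratin reads, 0 with males only, 2 without both libraries that stood apart (an alternative added after seeing the data), and 1 to 7 without 1 library. Some of these fits held fewer samples, and the cause of the changes was not tested. Rescaling by median ratios changed the split of tumour calls from 146 higher and 180 lower to 172 and 150. Of these 24 genes, 13 were called in all 16 fits without 1 library, and 2 (Myot and Gdpd2) could not be tested in some of them. With males only 3 were called and 2 not tested, without livers with keratin reads 8 were called, and with RPKM as deposited 10 were called and 2 not tested. Genes with few reads in a group, such as Myot and Sp5, are limited by depth.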
